A study of Mus musculus with 6 samples.

Results

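The 10 genes of colonocyte ion and water transport described here were followed in sorted fibroblasts of mouse colonic adenomas. They were chosen by name, as Slc26a3, Slc9a3, Scnn1a, Cftr, Slc12a2, Car1, Car2, Car4, Aqp8 and Atp1b1, and each was found as 1 row of the 49548 genes in the deposited table. The tumors were from C57/BL6 mice that carried Col6a1-Cre and the Rosa26-mTmG reporter and had received AOM, a colon carcinogen, at 8 to 10 weeks of age, followed by cycles of DSS, which injures the colon lining. Cells without CD45, EpCAM, CD31 and Ter119 were sorted into Col6a1+ cancer-associated fibroblasts (CAFs), in which Cre has switched the reporter to GFP, and Col6a1− CAFs, which keep Tomato. There were 3 libraries of 3′ mRNA sequencing for each, every one from pooled tumors of several mice, and no library of normal colon or of sorted epithelium was analysed here. The GFP gate marks every cell in which Col6a1-Cre has been active, including pericytes, so neither gate is a single cell type.

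Colonocytes take up sodium and chloride at their apical face and water follows. Slc26a3 exchanges chloride for bicarbonate, Slc9a3 (NHE3) exchanges sodium for protons, and Scnn1a is the alpha subunit of the epithelial sodium channel. Secretion runs the other way, with Slc12a2 (NKCC1) loading chloride across the basolateral face and Cftr letting it out at the apex. Carbonic anhydrases supply the bicarbonate and protons that the exchangers use, Aqp8 is a water and solute channel of surface colonocytes, and Atp1b1 is the beta1 subunit of the Na/K-ATPase, the basolateral pump that powers the other transporters.

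Levels are normalized read counts, taken back from the deposited log2 values, and a log2 fold change is the difference of mean log2(normalized count + 1), Col6a1+ minus Col6a1−, with its standard error. It was tested with limma over the 26402 genes that had at least 1 normalized count, and a gene passed at a Benjamini-Hochberg adjusted p under 0.05. The pools are the replicates, so p-values measure only the spread between pools.

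The libraries summed to between 3039152 and 3425249 normalized counts. Col6a1+ replicate 1 stood apart, with 14530 genes detected against 18770 to 20511 in the other libraries, and 5 of the 10 members were at 0 in it. Col6a1 itself had 861, 1287 and 1941 normalized counts in Col6a1+ replicates 1, 2 and 3 and 182, 321 and 102 in Col6a1− replicates 1, 2 and 3, higher in Col6a1+ CAFs by 2.82 ± 0.44 on the log2 scale (limma adjusted p = 0.00613). Fibroblast identity was present in both groups: the summed counts of 8 pan-fibroblast markers were 41971 to 46808 in Col6a1+ and 8708 to 15920 in Col6a1− CAFs, and 5 of the 8 were higher in Col6a1+ CAFs. Of 7 mural markers, 6 were also higher in Col6a1+ CAFs, where 2.66% of all genes tested were called higher.

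Counts of epithelial marker genes were present in both sorted fractions, and most were lower in Col6a1+ CAFs. Which cells these counts came from was not tested. The 18 epithelial markers summed to 6717, 9183 and 8566 normalized counts in Col6a1+ replicates 1, 2 and 3, or 0.203% to 0.289% of the library, and to 29060, 49157 and 44089 in Col6a1− replicates 1, 2 and 3, or 0.956% to 1.5%. All 18 had a fold change below 0, 13 passed as lower in Col6a1+ CAFs and the groups of 16 did not overlap. Over all genes tested, 1.96% were called lower and 11.6% were lower without overlap. The median of the 18 was −2.15 on the log2 scale, against −0.27 for all genes tested. Epcam, whose protein was used to gate epithelium out, had 1074, 884 and 615 counts in Col6a1+ and 3107, 4129 and 3730 in Col6a1− replicates 1, 2 and 3, a fall of −2.12 ± 0.29 (limma adjusted p = 0.0033). None of the 18 markers was at 0 in any library. Cdx2, a transcription factor of the intestinal epithelium, did not pass and had 32, 12 and 4 counts against 15, 31 and 20 (−0.78 ± 0.86, limma adjusted p = 0.642). Among 10 immune genes only S100a8 passed, as lower, and Ptprc, which encodes CD45, had 0, 2 and 0 against 7, 8 and 3 counts. The part of this epithelial difference in the member values below was not tested, and in bulk samples fewer cells of a type and less RNA per cell cannot be told apart.

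Of the 9 members with any count, 8 were lower in the Col6a1+ library than in the Col6a1− library of the same number in 3 of 3 pairs, and Slc12a2 was higher in 3 of 3. Over all genes tested, 18.8% were lower and 12.3% higher in 3 of 3 pairs. The groups did not overlap for 3 lower members, Cftr, Car2 and Atp1b1, and for 1 higher member, Slc12a2, where 11.6% of all genes did not overlap in the lower and 7.91% in the higher direction. After adjustment, 1 of the 9 tested members passed in limma, Atp1b1, as lower. As higher, 0 passed, with 1 higher at an unadjusted p under 0.05. Of all genes, 1.96% were called lower, 2.66% higher and 4.62% in either direction. Many of those genes have few counts, while all 9 members averaged at least 10. Fitted over the 13515 genes of that level, 2 members were lower and 1 higher, beside 608 genes called lower and 815 higher. Under a looser rule, which asks for an unadjusted p under 0.05 and a log2 fold change of more than 1 in size, 4 members (Cftr, Car1, Car2 and Atp1b1) counted as lower and Slc12a2 as higher, beside 8.61% and 6.09% of all genes. The median fold change of the 9 was −2.30, and −1.25 without Col6a1+ replicate 1.

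With the replicate number as a block, 0 genes of the table passed in limma, members included, although 1851 were higher and 2567 lower at an unadjusted p under 0.05. When only the 13515 genes averaging at least 10 normalized counts were fitted, the same block gave 3 lower members (Car1, adjusted p = 0.0386; Car2, adjusted p = 0.00733; Atp1b1, adjusted p = 0.00204) and 1 higher member (Slc12a2, adjusted p = 0.0352), beside 6.44% of genes called lower and 7.26% called higher.

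**Figure D1:**
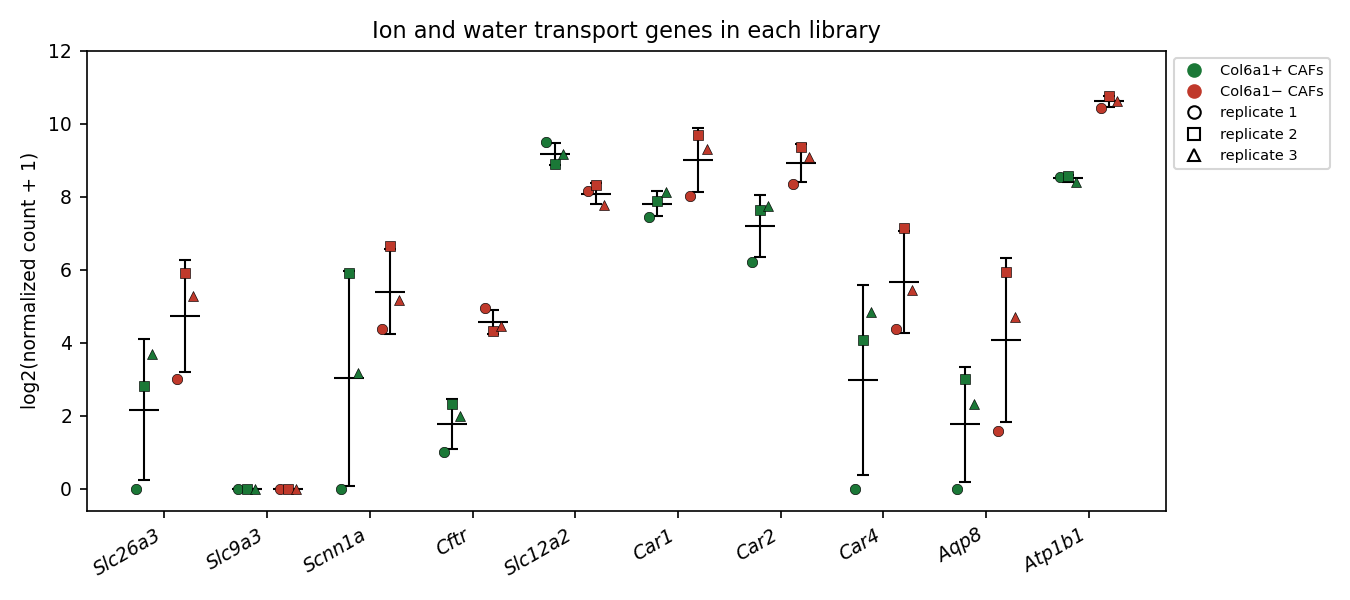
Normalized counts of the 10 members in each library, on the vertical axis as log2(normalized count + 1), for Col6a1+ (green) and Col6a1− (red) CAFs; symbols give the replicate, and the bar with its whiskers is the mean ± SD of the log2 values (n = 3). Atp1b1 and Slc12a2 have no overlap between groups and lie in opposite directions, Slc9a3 is at 0 in every library, and Col6a1+ replicate 1 is at 0 for Slc26a3, Scnn1a, Car4 and Aqp8.

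Promoters could be read for 6 members from RefSeq sequence (GRCm38.p6), namely Slc26a3, Car4, Aqp8, Cftr, Slc9a3 and Atp1b1. Each window holds 250 bases before and 50 after the annotated start, and 4 are shown because they set 3 genes of surface colonocytes against the widely expressed pump subunit that passed the test. Capitals mark matches on either strand to the TATA box, spelled TATAAA, to an HNF1 half-site, spelled GTTAAT, and to the CDX core, spelled TTTAT, whose reverse complement overlaps the TATA box.
Slc26a3, chr12:31437969-31438268, plus strand: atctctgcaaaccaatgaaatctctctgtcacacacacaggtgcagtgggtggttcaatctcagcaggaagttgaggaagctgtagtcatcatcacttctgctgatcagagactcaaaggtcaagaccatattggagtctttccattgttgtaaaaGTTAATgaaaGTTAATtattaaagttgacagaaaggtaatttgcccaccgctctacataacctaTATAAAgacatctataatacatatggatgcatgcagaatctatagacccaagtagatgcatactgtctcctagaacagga
Car4, chr11:84957504-84957803, plus strand: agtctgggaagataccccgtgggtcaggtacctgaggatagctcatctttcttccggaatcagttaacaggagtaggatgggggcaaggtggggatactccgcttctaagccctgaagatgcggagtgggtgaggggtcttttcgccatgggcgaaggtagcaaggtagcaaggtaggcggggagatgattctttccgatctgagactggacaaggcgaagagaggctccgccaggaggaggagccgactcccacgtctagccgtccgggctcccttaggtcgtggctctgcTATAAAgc
Aqp8, chr7:123462044-123462343, plus strand: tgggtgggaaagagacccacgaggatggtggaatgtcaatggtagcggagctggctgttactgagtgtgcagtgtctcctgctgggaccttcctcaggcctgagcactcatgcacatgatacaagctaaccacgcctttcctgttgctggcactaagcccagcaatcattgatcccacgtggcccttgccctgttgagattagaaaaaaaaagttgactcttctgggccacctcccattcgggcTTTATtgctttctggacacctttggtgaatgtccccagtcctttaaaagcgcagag
Atp1b1, chr1:164458306-164458605, minus strand: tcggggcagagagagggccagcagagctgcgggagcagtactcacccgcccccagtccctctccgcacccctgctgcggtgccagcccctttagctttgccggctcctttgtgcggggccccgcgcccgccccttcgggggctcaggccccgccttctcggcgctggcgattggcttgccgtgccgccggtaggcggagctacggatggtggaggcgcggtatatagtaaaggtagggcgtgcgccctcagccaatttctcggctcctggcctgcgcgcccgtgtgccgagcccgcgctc

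The Slc26a3 window had a TATA box 30 bases before the start, with the CDX core letters of the other strand inside it, and 2 HNF1 half-sites at 94 and 84 bases before the start. That RefSeq start lies inside the deposited gene model of Slc26a3, which begins upstream at base 31390871, so these positions do not refer to the start of the counted model. The Car4 window held TATAAA only at base 43 after the start, again with the CDX core letters of the other strand inside it, at base 44. Aqp8 held 1 CDX core 6 bases before the start. The Atp1b1 window held none of the 3 motifs in their exact spelling. It does read tatatag before the start, letters close to TATAAA, and such variants were not searched, so a lack of a TATA box cannot be read from this. The window was 71.0% G and C with 31 CpG, close to Cftr with 71.3% and 31 CpG and unlike Slc26a3 with 39.3% and 1 CpG. Among 32851 mouse promoters of the same length, 13.6% held TATAAA, 7.1% the HNF1 half-site and 40.0% the CDX core, with a median of 52.7% G and C and 7 CpG. These matches are descriptions of the letters in the window.

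The 3 absorption members were low and did not pass. Slc26a3 (chr12:31390871-31473917, plus strand, mm10) had 0, 6 and 12 normalized counts in Col6a1+ replicates 1, 2 and 3 and 7, 59 and 38 in Col6a1− replicates 1, 2 and 3. The Col6a1+ values reached above the lowest Col6a1− value, so the groups overlapped, and the difference was −2.56 ± 1.19 (limma adjusted p = 0.33). Without Col6a1+ replicate 1 it was −1.48 (adjusted p = 0.5). Scnn1a (chr6:125320659-125344943, plus strand) had 0, 59 and 8 counts against 20, 100 and 35, with Col6a1+ replicate 2 above 2 of the 3 Col6a1− libraries. Its difference was −2.38 ± 1.31 (adjusted p = 0.432), and −0.87 without Col6a1+ replicate 1 (adjusted p = 0.666). In both genes replicate 2 was the highest Col6a1− library and replicate 1 the lowest.

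Slc9a3 (chr13:74121515-74166064, plus strand) had 0 counts in all 6 libraries and could not be tested. Its deposited gene model ended 3378 bases short of the GENCODE M21 end on the 3′ side, the side that 3′ sequencing reads, so reads from the end of the longer model may not have been counted. A level of 0 also allows up to 3 reads by counting error alone, and absence of Slc9a3 RNA cannot be read from these values.

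Among 11 other absorption genes, 1 passed as lower and none as higher, while 10 did not pass. Beside this count and those of the lists below, 1.96% of all genes tested were called lower and 2.66% higher. Scnn1b, the beta subunit of the same sodium channel, had 0, 1 and 0 counts in Col6a1+ and 42, 19 and 24 in Col6a1− replicates 1, 2 and 3, a fitted difference of −4.46 ± 0.95 (limma adjusted p = 0.0244). The gamma subunit Scnn1g was at 0 in all 3 Col6a1+ libraries and at 15, 1 and 6 in the Col6a1− libraries (adjusted p = 0.153). All 3 channel subunits thus had their highest level in a Col6a1− library, but only for Scnn1b did the test pass. The sulfate transporter Slc26a2 was at 284, 251 and 142 against 280, 429 and 405 (−0.75 ± 0.36, adjusted p = 0.335), and the PDZ scaffold Slc9a3r1 (NHERF1), which binds Slc9a3 and Cftr, at 3, 49 and 44 against 44, 156 and 94 (−2.07 ± 0.93, adjusted p = 0.305, and −0.88 without Col6a1+ replicate 1).

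Both secretion members were without overlap between groups, Cftr with lower and Slc12a2 with higher counts in Col6a1+ CAFs, and neither passed. Cftr (chr6:18170687-18322768, plus strand) had 1, 4 and 3 counts in Col6a1+ and 30, 19 and 21 in Col6a1− replicates 1, 2 and 3. The groups were apart, with at least 19 counts in Col6a1− and at most 4 in Col6a1+ libraries, and the difference was −2.80 ± 0.89 (limma adjusted p = 0.118), and leaving out 1 library at a time kept the difference between −3.08 and −2.42. Slc12a2 (chr18:57878678-57946821, plus strand) had 720, 473 and 572 counts against 286, 319 and 218, a mean of 588 ± 124 against 274 ± 51.5 (SD, n = 3). It was the one member with higher counts in every Col6a1+ library, by 1.09 ± 0.30 (limma adjusted p = 0.0729), and the difference ran from 0.94 to 1.24 with 1 library left out. NKCC1 is a chloride importer of many cell types besides epithelium, including smooth muscle and other contractile cells.

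Of 11 other chloride and potassium secretion genes tested, 3 were lower and 1 higher, and 7 did not pass. Kcnq1 had 14, 6 and 15 counts against 145, 58 and 54 (−2.71 ± 0.64, limma adjusted p = 0.0399), and Kcne3, whose product forms the basolateral potassium channel with it, had 47, 26 and 13 against 348, 249 and 127 (−3.09 ± 0.56, adjusted p = 0.0121). Clca4b, a chloride channel accessory family gene, was at 240, 397 and 317 against 746, 1371 and 691 (−1.51 ± 0.35, adjusted p = 0.034). Ano1, the calcium-activated chloride channel that is also abundant in smooth muscle and pacemaker cells of the gut, was the exception, at 292, 476 and 564 against 73, 151 and 151 (1.84 ± 0.40, adjusted p = 0.027). Clcn2 (−1.57 ± 0.41, adjusted p = 0.0583) and Clca4a (−0.97 ± 0.41, adjusted p = 0.269) were lower in every Col6a1+ library without passing, and Slc4a7 overlapped (−0.46 ± 0.52, adjusted p = 0.642). Best4 was not found in the table.

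The 3 carbonic anhydrase members were lower in 3 of 3 pairs and none passed. Car2 (chr3:14886273-14900770, plus strand), the high-activity cytosolic isozyme, had 74, 197 and 214 counts in Col6a1+ and 327, 653 and 546 in Col6a1− replicates 1, 2 and 3, a mean of 162 ± 76.4 against 509 ± 166 (SD, n = 3). The groups did not overlap and the difference was −1.73 ± 0.45 (limma adjusted p = 0.0575). This lay near the threshold: Car2 passed under library size scaling alone (adjusted p = 0.0342) and under limma-voom (adjusted p = 0.0238), among others, and over all alternatives the adjusted p ranged from 0.00733 to 0.381. Without Col6a1+ replicate 1, its lowest library, the difference was −1.25 (adjusted p = 0.111).

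Car1 (chr3:14766216-14808368, minus strand), the abundant cytosolic isozyme of colonocytes and of red cells, had 174, 234 and 277 counts against 258, 830 and 635, a mean of 228 ± 51.7 against 574 ± 291 (SD, n = 3). Col6a1− replicate 1 lay within the Col6a1+ range and the other 2 lay above it, and the difference of −1.19 ± 0.43 did not pass (limma adjusted p = 0.176). A processed pseudogene, Gm16399, lies on the same strand inside an intron of Car1 and had 217, 189 and 204 counts against 231, 248 and 216, so any reads it shares with the gene are uncertain. Of the erythroid genes, whose cells Ter119 gating removes, none of the 5 that could be tested passed, 3 with a fold change below 0 and 2 above 0. Hbb-bs was at 34, 119 and 233 against 160, 69 and 147 counts, and Slc4a1 was at 0 in all 6 libraries. The 2 above 0 were Hba-a1, at 34, 165 and 710 against 60, 78 and 150 counts, and Hba-a2, at 36, 176 and 726 against 59, 94 and 136. Both had more counts than Car1 in Col6a1+ replicate 3. Car4 (chr11:84957786-84966044, plus strand), the membrane-anchored isozyme of surface colonocytes, had 0, 16 and 28 counts against 20, 142 and 43. Its groups overlapped through Col6a1− replicate 1 (−2.69 ± 1.23, limma adjusted p = 0.32), and the difference was −1.20 without Col6a1+ replicate 1 (adjusted p = 0.521).

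The other carbonic anhydrases held no called gene among 8 tested in limma, with a median of −0.06. The 3 with the highest levels were Car9, a hypoxia-responsive isozyme of the cell surface, with 0, 36 and 97 counts against 63, 102 and 554 (−3.33 ± 1.44, adjusted p = 0.286, and −1.36 without Col6a1+ replicate 1), Car12 (0.32 ± 0.77, adjusted p = 0.836) and Car13 (0.59 ± 0.72, adjusted p = 0.642). Differences between these genes and Car1, Car2 or Car4 were not tested.

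Aqp8 (chr7:123462291-123468004, plus strand) had 0, 7 and 4 counts in Col6a1+ and 2, 60 and 25 in Col6a1− replicates 1, 2 and 3. Its Col6a1− replicate 1 lay below 2 of the Col6a1+ libraries, and the difference was −2.30 ± 1.31 (limma adjusted p = 0.435), and −1.41 without Col6a1+ replicate 1. None of the 7 other aquaporins passed. Aqp4, a water channel of the basolateral face, came nearest, with 0, 13 and 1 counts against 35, 139 and 33 (−4.19 ± 1.12, adjusted p = 0.0632). Aqp1, typical of endothelium, was at 28, 29 and 79 against 40, 102 and 113 (−0.93 ± 0.59, adjusted p = 0.496), and Aqp11 at 0, 3 and 5 against 4, 13 and 20 (−1.98 ± 1.09, adjusted p = 0.434, and −1.21 without Col6a1+ replicate 1).

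Atp1b1 (chr1:164437109-164458355, minus strand) was the member with the firmest difference. It had 372, 381 and 337 counts in Col6a1+ and 1393, 1730 and 1584 in Col6a1− replicates 1, 2 and 3, a mean of 363 ± 23.2 against 1569 ± 169 (SD, n = 3). No library overlapped, and Atp1b1 fell by −2.10 ± 0.26 on the log2 scale (limma adjusted p = 0.00191). With 1 library left out the difference ran from −2.19 to −2.03, and with the replicate block over all genes, the adjusted p was 0.0612. It was also 0.0536 with no filter on low values and 0.0511 without Col6a1− replicate 1, while without Col6a1+ replicate 1 it was 0.0204. Nme7 lies on the opposite strand over the 3′ end of Atp1b1, with an overlap of 617 bases, and whether the counting used strand is not given in the sources used here. Nme7 had only 30, 25 and 20 counts against 22, 45 and 31.

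The pump can carry other beta subunits in place of Atp1b1, and 1 of these rose. The beta2 subunit Atp1b2 rose where Atp1b1 fell, with 1228, 442 and 1587 counts in Col6a1+ and 22, 33 and 9 in Col6a1− replicates 1, 2 and 3 (5.58 ± 0.57, limma adjusted p = 0.000941). The beta3 subunit Atp1b3 overlapped, at 377, 170 and 212 against 236, 196 and 223 (0.13 ± 0.36, adjusted p = 0.858, and −0.20 without Col6a1+ replicate 1).

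FXYD proteins are small regulators of the pump, and of the 5 tested 1 rose, 2 fell and 2 did not pass. Fxyd1 (phospholemman), the muscle form, rose with 294, 128 and 166 counts against 23, 49 and 3 (3.46 ± 0.82, limma adjusted p = 0.039). Fxyd3 fell with 146, 141 and 137 against 591, 469 and 395 (−1.75 ± 0.30, adjusted p = 0.0094), where Lgi4 covers its 3′ end on the opposite strand with at most 52 counts in any library. Fxyd6 fell with 37, 76 and 55 against 823, 451 and 916 (−3.68 ± 0.40, adjusted p = 0.00131). Fxyd4 had 0, 13 and 29 against 27, 58 and 42 (−2.47 ± 1.16, adjusted p = 0.331, and −1.01 without Col6a1+ replicate 1) and Fxyd5 53, 122 and 109 against 40, 72 and 34 (0.93 ± 0.50, adjusted p = 0.409). Atp12a, the H/K-ATPase alpha subunit of the distal colon, had 139, 87 and 57 against 196, 787 and 259 (−1.94 ± 0.53, adjusted p = 0.0719).

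**Figure D2:**
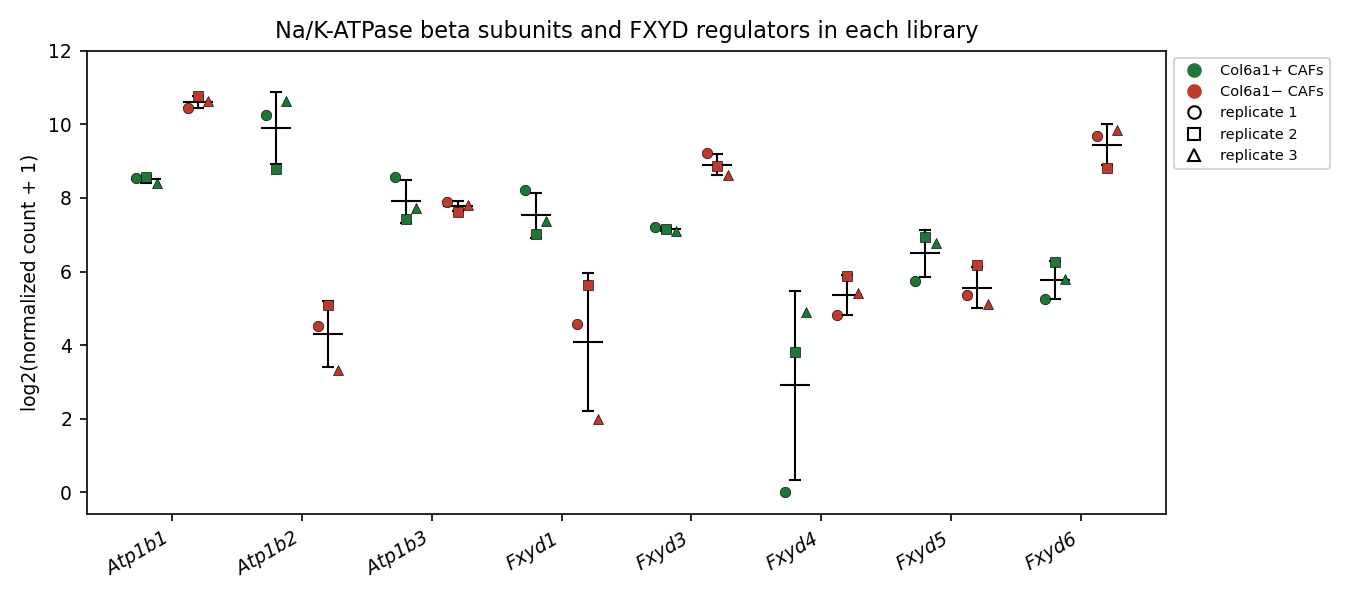
Na/K-ATPase beta subunits and FXYD regulators in each library, on the vertical axis as log2(normalized count + 1), for Col6a1+ (green) and Col6a1− (red) CAFs, with symbols for the replicate and bars for the mean ± SD of the log2 values (n = 3). Atp1b1, Fxyd3 and Fxyd6 lie lower and Atp1b2 and Fxyd1 higher in Col6a1+ CAFs without overlap, while Atp1b3, Fxyd4 and Fxyd5 overlap.

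Of the regulators of transport, 2 were lower and 1 higher of 12 tested, and 9 did not pass. Gucy2c, the guanylate cyclase receptor through which guanylins stimulate secretion, had 53, 41 and 20 counts against 182, 175 and 99 (−2.03 ± 0.49, limma adjusted p = 0.0425). Its ligands Guca2a (9, 18 and 25 against 40, 159 and 65, adjusted p = 0.104) and Guca2b (0, 1 and 1 against 25, 14 and 9, adjusted p = 0.0852) did not overlap between groups and did not pass. Hsd11b2, which protects the mineralocorticoid receptor from glucocorticoid, had 17, 17 and 25 against 79, 110 and 79 (−2.13 ± 0.48, adjusted p = 0.0329). Stk39 (SPAK), a kinase that activates NKCC1, had 178, 59 and 174 against 30, 20 and 14 (2.53 ± 0.57, adjusted p = 0.0315), the same direction as the counts of Slc12a2. The kinases Wnk1 (0.32 ± 0.38) and Sgk1 (1.00 ± 0.43) and the ubiquitin ligase Nedd4l (−0.39 ± 0.45) did not pass, with adjusted p of 0.642, 0.282 and 0.642.

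In all, 61 other transport genes were listed, 60 were in the table and 59 had a count, Car14 being at 0. Of the 59, 8 were lower (Scnn1b, Kcnq1, Kcne3, Clca4b, Fxyd3, Fxyd6, Gucy2c and Hsd11b2) and 4 higher (Ano1, Atp1b2, Fxyd1 and Stk39), and 47 did not pass. Over all genes tested, 1.96% were called lower and 2.66% higher. Fitted over the 13515 genes averaging at least 10 counts, 9 of 47 other transport genes were lower and 4 higher. That fit called 608 of all genes lower and 815 higher. The median fold change of the 59 was −0.97, and −0.66 without Col6a1+ replicate 1, against −0.27 for all genes. Fewer genes passed with 1 library left out, as over the whole table, where the main fit called 517 lower and 703 higher. Without Col6a1− replicate 1, 0 of the other transport genes passed in limma, with 18 lower and 5 higher at an unadjusted p under 0.05. That fit called 1 gene of the whole table lower and 11 higher. Without Col6a1− replicate 3, 0 of the other transport genes were lower and 1 higher, with 17 lower at an unadjusted p under 0.05. The whole table then had 14 lower and 102 higher. Of the other transport genes, 6 were lower and 3 higher without Col6a1+ replicate 1 (442 and 453 of all genes). They were 2 and 2 without Col6a1+ replicate 2 (218 and 292). Without Col6a1+ replicate 3 they were 1 and 1 (149 and 179), and without Col6a1− replicate 2, 1 and 1 (52 and 180). With the replicate block over all genes 0 passed, with 23 lower and 6 higher at an unadjusted p under 0.05.

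**Figure D3:**
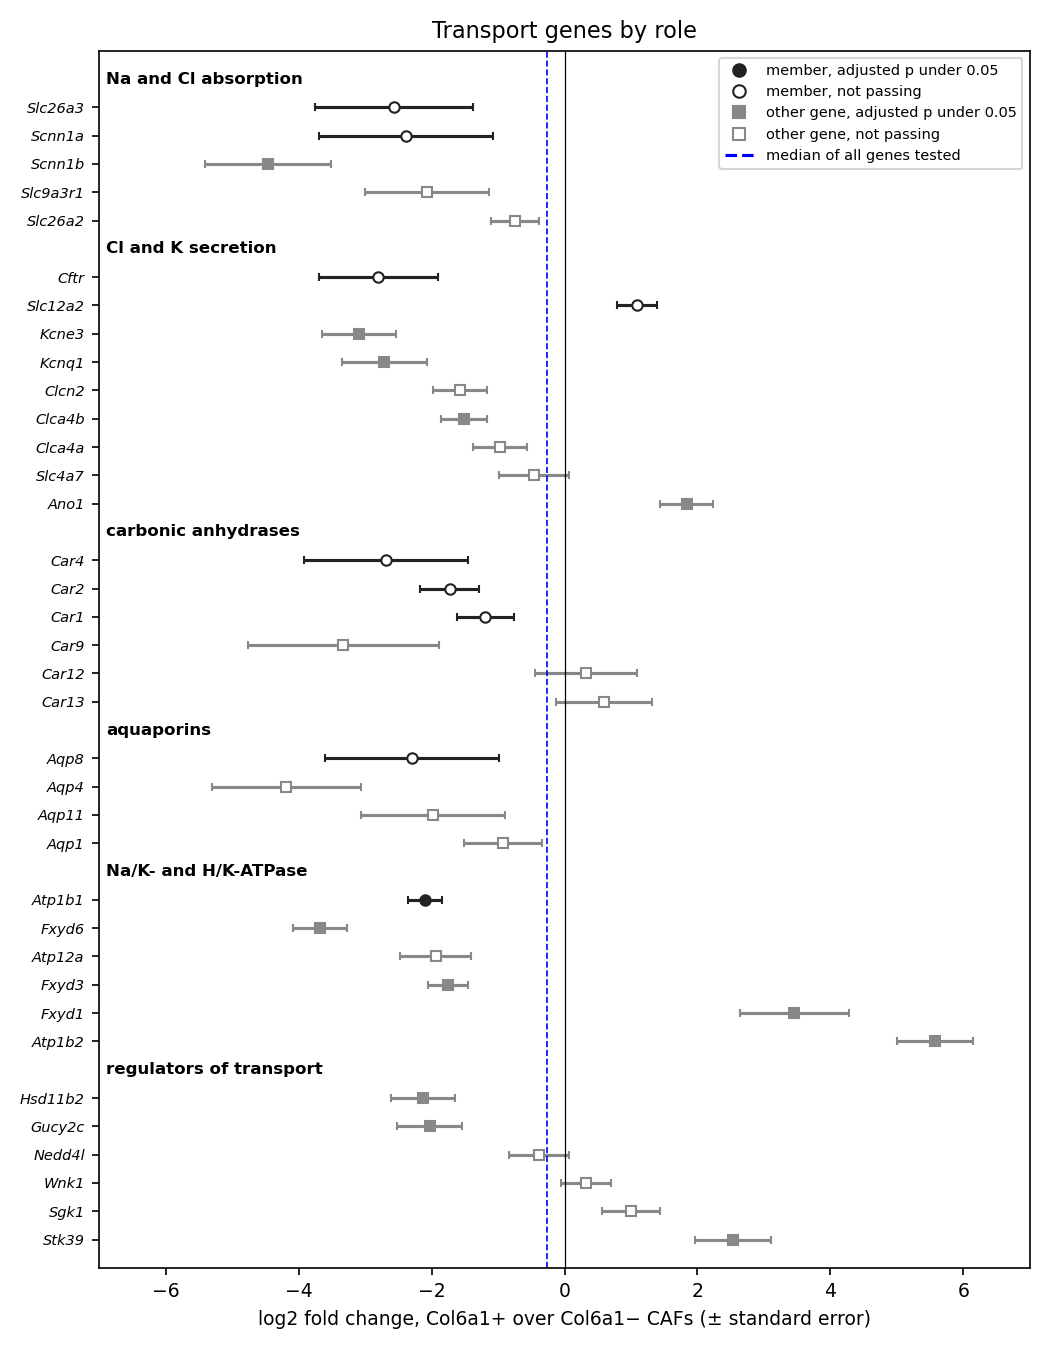
Log2 fold change (Col6a1+ over Col6a1− CAFs) ± standard error on the horizontal axis for the 9 members with a count (circles) and the named other transport genes (squares), grouped by role; filled symbols passed at an adjusted p under 0.05 and the dashed line is the median of all genes, −0.27. Atp1b1 is the only filled member, and the called genes Ano1, Atp1b2, Fxyd1 and Stk39 lie to the right of 0 with the other called genes to the left.

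Each member was also set against the epithelial markers of its own library, as normalized counts per 1000 counts of the 18 markers, a description chosen after its values were seen and given with no test. The marker sum was on average 5.0 times as high in Col6a1− as in Col6a1+ libraries, so a gene with equal counts in both groups is about that much higher in Col6a1+ CAFs on this scale. Cdh1 and Cldn4 had the highest mean counts of the markers, 2641 and 1472 in Col6a1+ and 12636 and 11833 in Col6a1− CAFs, so the sum leans on them. Over all genes tested, 40.3% were higher and 2.01% lower in Col6a1+ CAFs without overlap, and over genes averaging at least 10 counts the median ratio of means was 4.58. Atp1b1 stood at 55.4, 41.5 and 39.3 per 1000 in Col6a1+ and 47.9, 35.2 and 35.9 in Col6a1− replicates 1, 2 and 3, so the groups that did not overlap in counts overlapped on this scale. Of the 9 members, 7 overlapped: Slc26a3, Scnn1a, Cftr, Car2, Car4, Aqp8 and Atp1b1. Slc12a2 did not, at 107, 51.5 and 66.8 per 1000 against 9.84, 6.49 and 4.94, a ratio of means of 10.6. Car1 did not either, and its direction was the opposite of that in counts, at 25.9, 25.5 and 32.3 per 1000 in Col6a1+ and 8.88, 16.9 and 14.4 in Col6a1− CAFs, a ratio of 2.08, which is below that median. When Cldn4 was left out of the markers, the same 7 overlapped and the ratios were 9.04 for Slc12a2 and 1.78 for Car1.

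**Figure D4:**
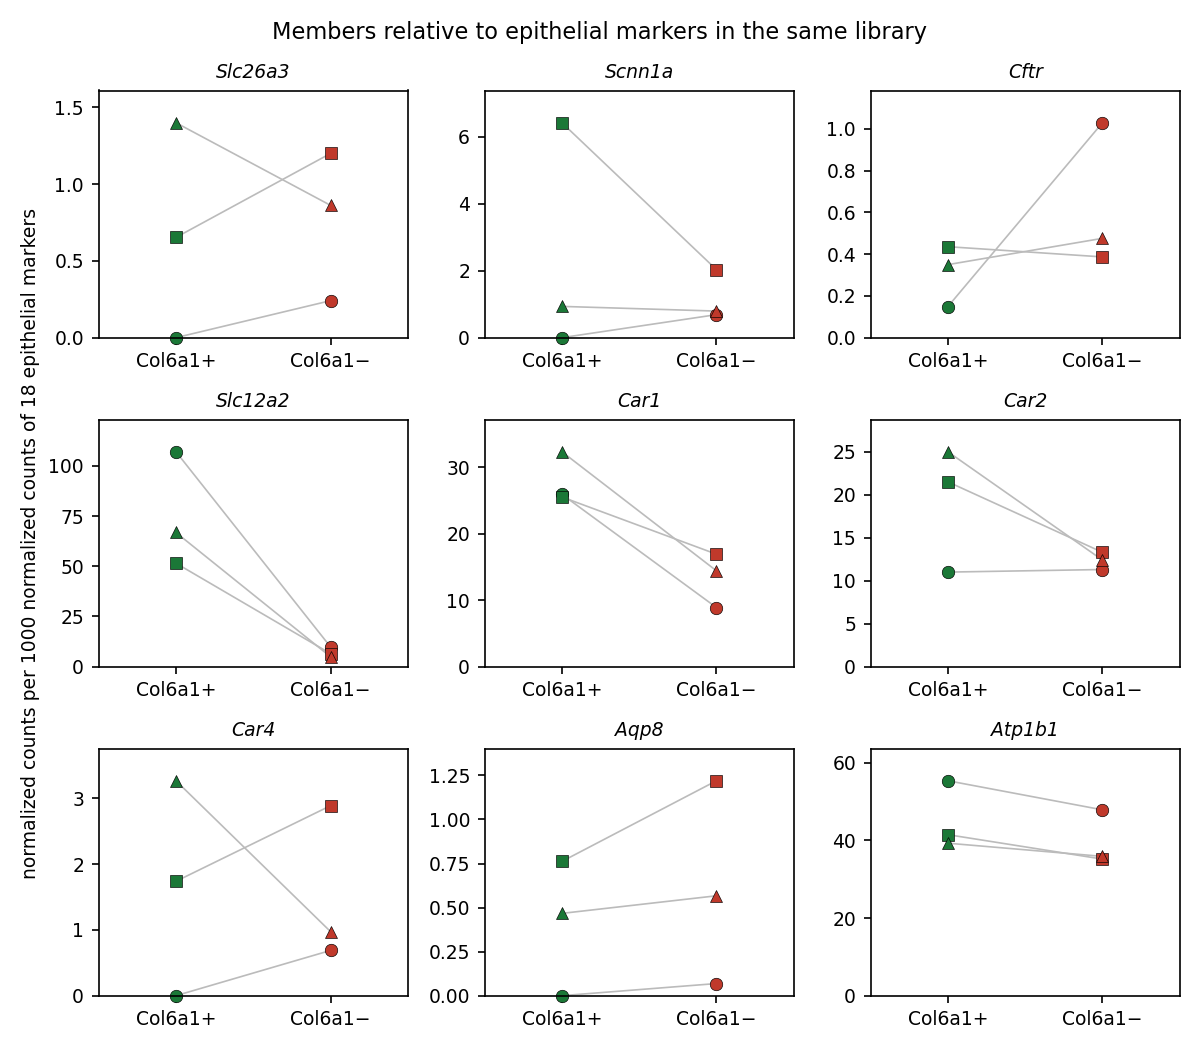
Members per 1000 normalized counts of the 18 epithelial markers in the same library (vertical axis, from 0, a separate scale per gene), with Col6a1+ (green) and Col6a1− (red) libraries of the same number joined by a line and symbols for the replicate. Slc12a2 and Car1 lie higher in every Col6a1+ library and the other 7 members overlap, with Atp1b1 between 35.2 and 55.4 in all 6 libraries.

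The genes whose log2 levels ran most like those of a member over the 6 libraries were taken from the 13515 genes that averaged at least 10 counts, by Pearson correlation and as a description. Members, the other transport genes of the lists and the markers were left out beforehand, so none of them could appear. For Slc26a3 they were Atic (r = 0.993), Gm37219 (0.990), Ptprd (0.990), Cd2bp2 (0.988) and Elof1 (0.988). None of these passed (limma adjusted p from 0.39 to 0.5) and their groups overlapped. In each of them replicate 1 was the lowest library of both groups. For Slc12a2 they were Rbpms2 (0.998), Dock6 (0.996), Slc6a12 (0.995), Sh3pxd2b (0.995) and Pld1 (0.994). All of these were higher in Col6a1+ CAFs without overlap, and only Rbpms2 and Dock6 passed. The points are shared libraries of 2 groups, so genes that differ between the groups correlate with one another, as can genes that are low in the same libraries.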

How the data were processed

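The 6 libraries, 3 of Col6a1+ and 3 of Col6a1− CAFs, were grouped and numbered by their labels. The authors mapped the 3′ mRNA-seq reads to mm10 with TopHat2, mapped the rest with Bowtie2, counted per gene with GenomicRanges and normalized with DESeq through metaseqR. The deposited values are the log2 of the normalized count plus 1, on the authors' scale, and 100% of the values returned to within 0.001 of a whole normalized count. Read depth is not given by normalized counts, so no counting interval was computed apart from the limit of 3 reads that a level of 0 allows. A further 6 columns of per-sample values were not used, and neither were the deposited columns of the authors' own comparison (fold changes, p-values and false discovery rates).

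Groups were compared in a linear model with limma 3.58.1 (R 4.3.3), fitted to the 26402 genes whose normalized counts summed to at least 1, with variances moderated along the mean (6.48 prior and 4 residual degrees of freedom), a two-sided test and Benjamini-Hochberg adjustment. Tables and plots used Python 3.11.15 with pandas 2.3.3, NumPy 2.4.6 and Matplotlib 3.10.9. The unpaired fit was also run on simulated counts with known changes in genes averaging at least 10 counts, whose outcome is not given here. This run does not bear on members with lower counts or on the replicate block. Replicate numbers were treated as pairing the libraries in the pair counts and in the block, although the labels do not say what a number marks. Deviations from the group means of same-numbered libraries had correlations of 0.245, 0.125 and 0.144 over 13515 genes. The other pairs ran from −0.245 to 0.150, the highest being Col6a1+ replicate 2 with Col6a1− replicate 3. That value lies above 0.125 and 0.144, so these correlations do not settle the pairing. Alternatives were library size alone, a pseudocount of 0.1, other filters, limma-voom, array quality weights, the replicate block and leaving out each library.

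All members were named, and of the other transport genes those that passed and the 3 highest by level in each list that did not, apart from some genes that are not reported here. Others given with values (Scnn1g, Guca2a, Guca2b, Atp1b3, Fxyd4 and Fxyd5) were chosen after their values were seen. Members, lists and markers were chosen with earlier results of these data known. Gene coordinates are those of the deposited table and promoters are from RefSeq.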

Additional observations from a re-analysis of the deposited data

How the results depend on the processing

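No member changed direction: of 130 values for the 9 members under the alternatives, 117 kept their side of the threshold, 3 of Atp1b1 lost it and 10 gained it. Of 650 values for 45 other named genes, 510 kept it, 114 lost it, 20 gained it and 6 reversed, none of them called: Car12 was −0.10, Atp1b3 −0.07 and Hbb-bs 0.35 with array quality weights, and when a library was left out Car12 ran from −0.34 (Col6a1+ replicate 1) to 0.96, Atp1b3 from −0.20 (Col6a1+ replicate 1) to 0.38 and Hbb-bs from −0.87 to 0.50 (Col6a1+ replicate 1). The cause was not tested.

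Over all genes, 703 were called higher and 517 lower in Col6a1+ CAFs. With no filter on low values these were 21 and 7, with 49548 genes entering the adjustment. With the replicate block, which treats libraries of the same number as pairs, they were 0 and 0, and 981 and 871 with the block over genes with a mean of at least 10 counts. By the second criterion they were 1607 and 2273. Lower calls were 336 with a pseudocount of 0.1, 1006 with limma-voom and 969 with array quality weights. Leaving out 1 library gave 11 to 453 higher and 1 to 442 lower.

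Members called higher numbered 0, and 1 with a mean of at least 10 counts, with at least 10 in every library, with the block over genes with that mean, and by the second criterion, and 0 with each library left out. Members called lower numbered 1, and 2 with library size alone, either filter of 10 counts, limma-voom or array quality weights, 0 with no filter on low values (3 at an unadjusted p under 0.05 in limma) and with the block (8 likewise), 3 with the block over the higher-count genes and 4 by the second criterion, with 0 to 1 when a library was left out.

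Other transport genes called higher numbered 4, and 0 with no filter (4 at an unadjusted p under 0.05 in limma), 2 with at least 10 counts in every library, 0 with the block and 7 by the second criterion, with 0 to 3 when a library was left out. Those called lower numbered 8, and 5 with a pseudocount of 0.1, 0 with no filter (16 likewise), 13 with limma-voom, 0 with the block, 13 with the block over the higher-count genes and 21 by the second criterion, with 0 to 6 when a library was left out. Low counts limit Slc26a3, Scnn1a, Car4 and Aqp8, whose differences without Col6a1+ replicate 1, where all 4 were at 0, were −1.48, −0.87, −1.20 and −1.41.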
